A study of Mus musculus with 42 samples.

Results

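Whether the transcript differences that go with alternate-day fasting in the mouse cerebellum were still there after a return to free feeding was asked of 4 groups of RNA-seq libraries, 5 in each. Mice of the EOD group had food for 24 h and none for the next 24 h, every other day, over 3 months, and were compared with AL mice fed ad libitum throughout. EOD_R mice had the same 3 months of alternate-day fasting and then 2 months of free access to food, and were compared with AL_R mice that had stayed on free feeding; the names EOD_R and AL_R follow the deposited columns. All were male C57BL/6 mice (C57/BL6NTac in the series design), 3 months old at the start, collected at 6 months of age (AL and EOD) or 8 months (AL_R and EOD_R). These 20 samples, chosen by their labelled feeding regimen, are 20 of the series' 42; of the others, the 10 RNA samples of a daily 16 h fast entered the joint fit for its estimate of spread. The comparison is the interaction: the EOD minus AL difference less the EOD_R minus AL_R difference, on a log2 scale, so that a positive value means a gene stood higher against its controls at the end of fasting than after refeeding. The tissue was whole frozen cerebellum, and the labels give neither the hour of collection nor the time since the last meal. They number the libraries as replicates without stating that each is a separate mouse, so p-values measure the spread between these libraries.

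A fast empties liver glycogen and sends fatty acids and ketone bodies into the circulation, and brain cells take up ketone bodies as a fuel. Falling insulin releases FOXO transcription factors, fatty acids activate PPAR receptors, and adrenal glucocorticoids rise and act through a receptor that induces genes such as Fkbp5, Tsc22d3 and Sgk1. Feeding hours also set peripheral and brain clocks, in which the activators CLOCK and BMAL1 (the product of Arntl) drive the repressors Per, Cry and Nr1d and the output genes Dbp, Tef and Hlf from E-box sequences. In the cerebellum, Purkinje cells, granule neurons, Bergmann glia and oligodendrocytes all contribute to the RNA pool.

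The promoters of Etnppl, the gene with the smallest interaction p, and of Per1 and Ciart, both clock repressor genes with an E-box, are printed from the RefSeq table for GRCm38.p6 as the bases before the transcription start, 5′ to 3′ on the strand of the gene. E-boxes (CACGTG) and D-boxes (TTATGTAA or TTATGCAA, on either strand) are in capitals. The windows are chr3:130617198-130617447 (plus strand) for Etnppl, chr11:69098699-69098948 (plus strand) for the first of its RefSeq starts for Per1, and chr3:95882229-95882478 (minus strand) for Ciart.
Etnppl: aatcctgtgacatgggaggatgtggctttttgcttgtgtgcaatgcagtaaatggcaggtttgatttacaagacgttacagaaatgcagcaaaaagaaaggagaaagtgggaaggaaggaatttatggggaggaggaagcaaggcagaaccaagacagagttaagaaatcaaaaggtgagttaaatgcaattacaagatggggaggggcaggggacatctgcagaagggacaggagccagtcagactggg
Per1: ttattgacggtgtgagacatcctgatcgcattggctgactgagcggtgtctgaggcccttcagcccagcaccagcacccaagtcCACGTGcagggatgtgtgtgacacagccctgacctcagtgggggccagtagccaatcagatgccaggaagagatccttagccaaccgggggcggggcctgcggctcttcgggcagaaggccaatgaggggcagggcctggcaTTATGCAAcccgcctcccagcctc
Ciart: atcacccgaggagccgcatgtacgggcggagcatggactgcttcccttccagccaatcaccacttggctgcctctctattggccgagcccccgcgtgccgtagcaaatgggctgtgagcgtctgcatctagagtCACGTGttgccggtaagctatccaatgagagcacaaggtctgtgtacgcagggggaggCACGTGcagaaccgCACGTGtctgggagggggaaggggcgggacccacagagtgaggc
In these 250 bases Etnppl held none of the motifs, Per1 held 1 E-box and 1 D-box, and Ciart held 3 E-boxes. Among the 18 genes called in any of the 3 comparisons here, 13 had a promoter in the table and 2 of these held an E-box, Per1 and Tef. Of 20 genes on the clock lists, 17 were in the table and 5 held an E-box (Bhlhe41, Ciart, Cry1, Per1 and Tef), against 1854 of all 27025 genes in the table (6.86%), or 1978 of its 32851 promoters of that length (6.02%). The D-box with T stood in 0.819% of all promoters and that with C in 0.694%. A match describes the letters in the window and shows no binding.

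The interaction was called for 2 of 16877 genes (0.0119%), at an adjusted p under 0.05 in edgeR's quasi-likelihood test with Benjamini-Hochberg adjustment. For these the difference from controls changed between the end of fasting and the end of refeeding. They were Etnppl, higher under EOD, and the linker histone gene Hist1h1c, lower under EOD. At an unadjusted p under 0.05 the interaction was positive for 4.86% of genes and negative for 5.48%, which is the background against which the gene lists are read. That background moved with single libraries: the positive genes numbered 820 and became 1856 without AL replicate 1, 430 without AL replicate 4, 533 without AL replicate 5 and 529 without EOD replicate 4, and the negative ones went from 925 to 1501 without AL replicate 1. Of the differences themselves, 11 of 16577 genes were called in EOD against AL (0.0664%) and 7 of 16444 in EOD_R against AL_R (0.0426%). Unadjusted, EOD was higher than AL for 7.02% and lower for 7.4%, and EOD_R was higher than AL_R for 4.51% and lower for 3.99%. The library values of EOD and AL did not overlap for 1.33% of genes with EOD higher and 1.56% with EOD lower. Between EOD_R and AL_R they did not overlap for 0.912% (higher) and 0.99% (lower). The spread between libraries of a group differed between the tables: the biological coefficient of variation was 14.3% at the end of the regimen and 8.05% after refeeding.

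**Figure D1:**
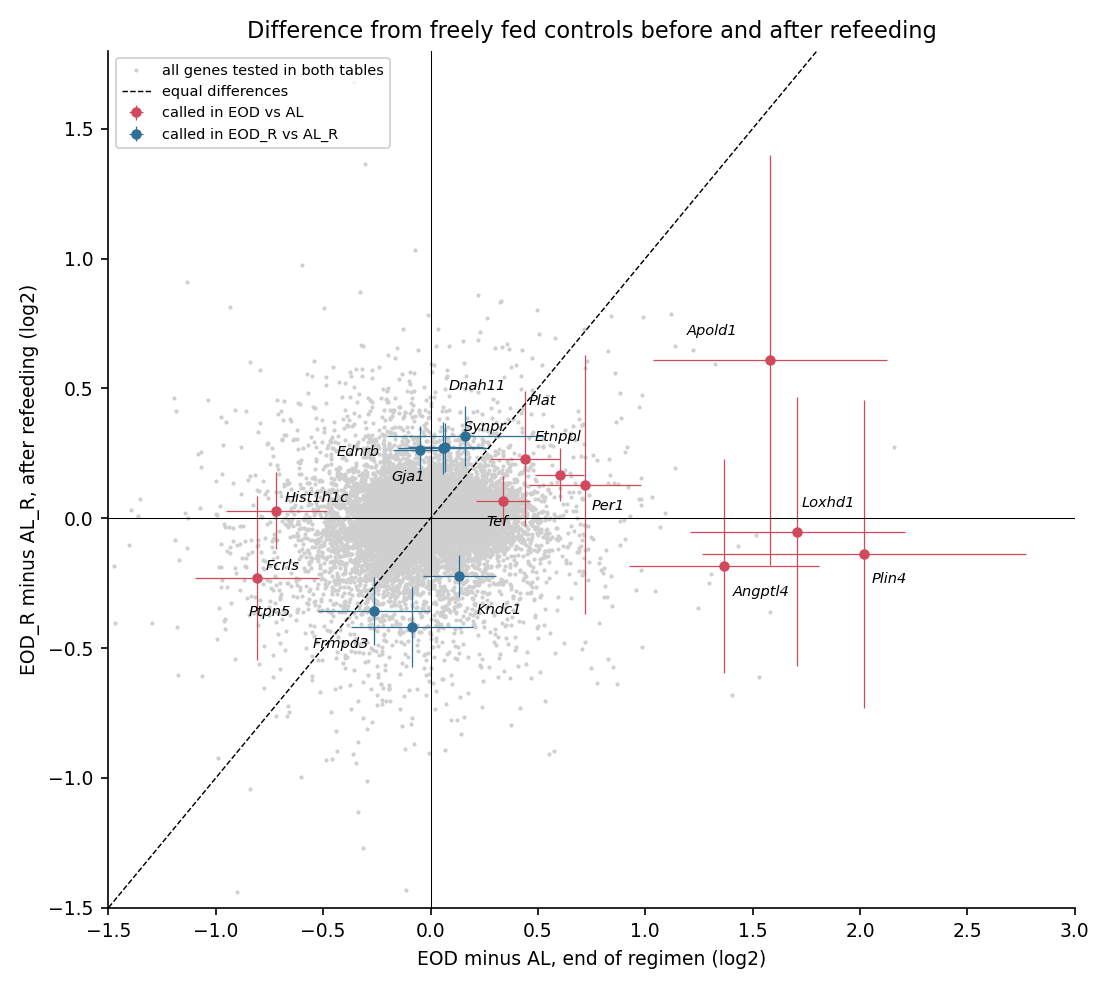
Log2 difference EOD minus AL (x axis) against EOD_R minus AL_R (y axis) for the 16320 genes tested in both tables, in log2 units. Grey points are genes, red points the genes named here that were called in EOD against AL and blue points those called in EOD_R against AL_R, with 95% intervals; the dashed line marks equal differences, and 9 genes lie outside the axes.

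Etnppl (ENSMUSG00000019232, chromosome 3, 130617448 to 130635750, plus strand, mm10) encodes ethanolamine-phosphate phospho-lyase, which degrades phosphoethanolamine, an intermediate of phosphatidylethanolamine synthesis, and is made mainly by astrocytes in brain. Its levels were 96.2, 94.3, 92.03, 84.5 and 95.5 CPM (read counts scaled to a common library size) in the AL libraries and 148, 145, 139.8, 134 and 136 in EOD. After refeeding they were 71.9, 80.9, 84.4, 80.5 and 88.6 in AL_R and 93.9, 91.4, 86.5, 87.2 and 96.6 in EOD_R. Every EOD library was above every AL library, while the EOD_R and AL_R libraries overlapped, although every EOD_R library stayed above the AL_R median. On a log2 scale EOD exceeded AL by 0.60 (SE 0.05) and EOD_R exceeded AL_R by 0.17 (SE 0.05, 95% interval 0.07 to 0.27, adjusted p = 0.287 by edgeR), so the difference after refeeding was 27.9% of the one before. The interaction was 0.44 (SE 0.07, 95% interval 0.29 to 0.58, adjusted p = 0.0127 by edgeR). From EOD to EOD_R Etnppl fell by 0.62 on the log2 scale (adjusted p = 3.70e-09), and from AL to AL_R by 0.19 (adjusted p = 0.0122). Those contrasts between tables called 1.91% and 23.9% of genes, respectively, and age, table and refeeding cannot be told apart in them. The interaction kept an adjusted p under 0.05 in 13 of 20 fits that each left out 1 library. It was lost, at adjusted p up to 0.0844 in edgeR, without EOD replicate 1 or 2, AL replicate 4, EOD_R replicate 3 or 4, or AL_R replicate 3 or 5. The log2 value stayed between 0.40 and 0.48.

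Of the 16 genes of ethanolamine phospholipid metabolism, Etnppl was in the fit of all libraries the 1 member with an interaction at an unadjusted p under 0.05, and the list's median interaction was -0.01, against -0.00479 for all genes. Pcyt2, the rate-limiting enzyme of the ethanolamine branch, ranged from 162 to 256 CPM in AL, 157 to 199 in EOD, 157 to 170.4 in AL_R and 155 to 172 in EOD_R, with an interaction of -0.27 (SE 0.15). Pemt, which methylates phosphatidylethanolamine to phosphatidylcholine, had -0.59 (SE 0.31). Neither passed the test. Without 1 library, 1 to 5 of the 16 had a positive and 0 to 3 a negative interaction at that threshold. The summed levels of astrocyte and Bergmann glia markers were 3054 to 3419 CPM in AL, 3304 to 3896 in EOD, 3176 to 3500.1 in AL_R and 3472 to 3749 in EOD_R. Of the 10 markers, 4 had a negative interaction at an unadjusted p under 0.05, none a positive one, the sign opposite to that of Etnppl, and none was at 0 in every library. Leaving out AL replicate 5 or AL_R replicate 1 left 2 of the 4. In bulk tissue, fewer cells of a type and less RNA per cell cannot be told apart, here and in what follows.

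**Figure D2:**
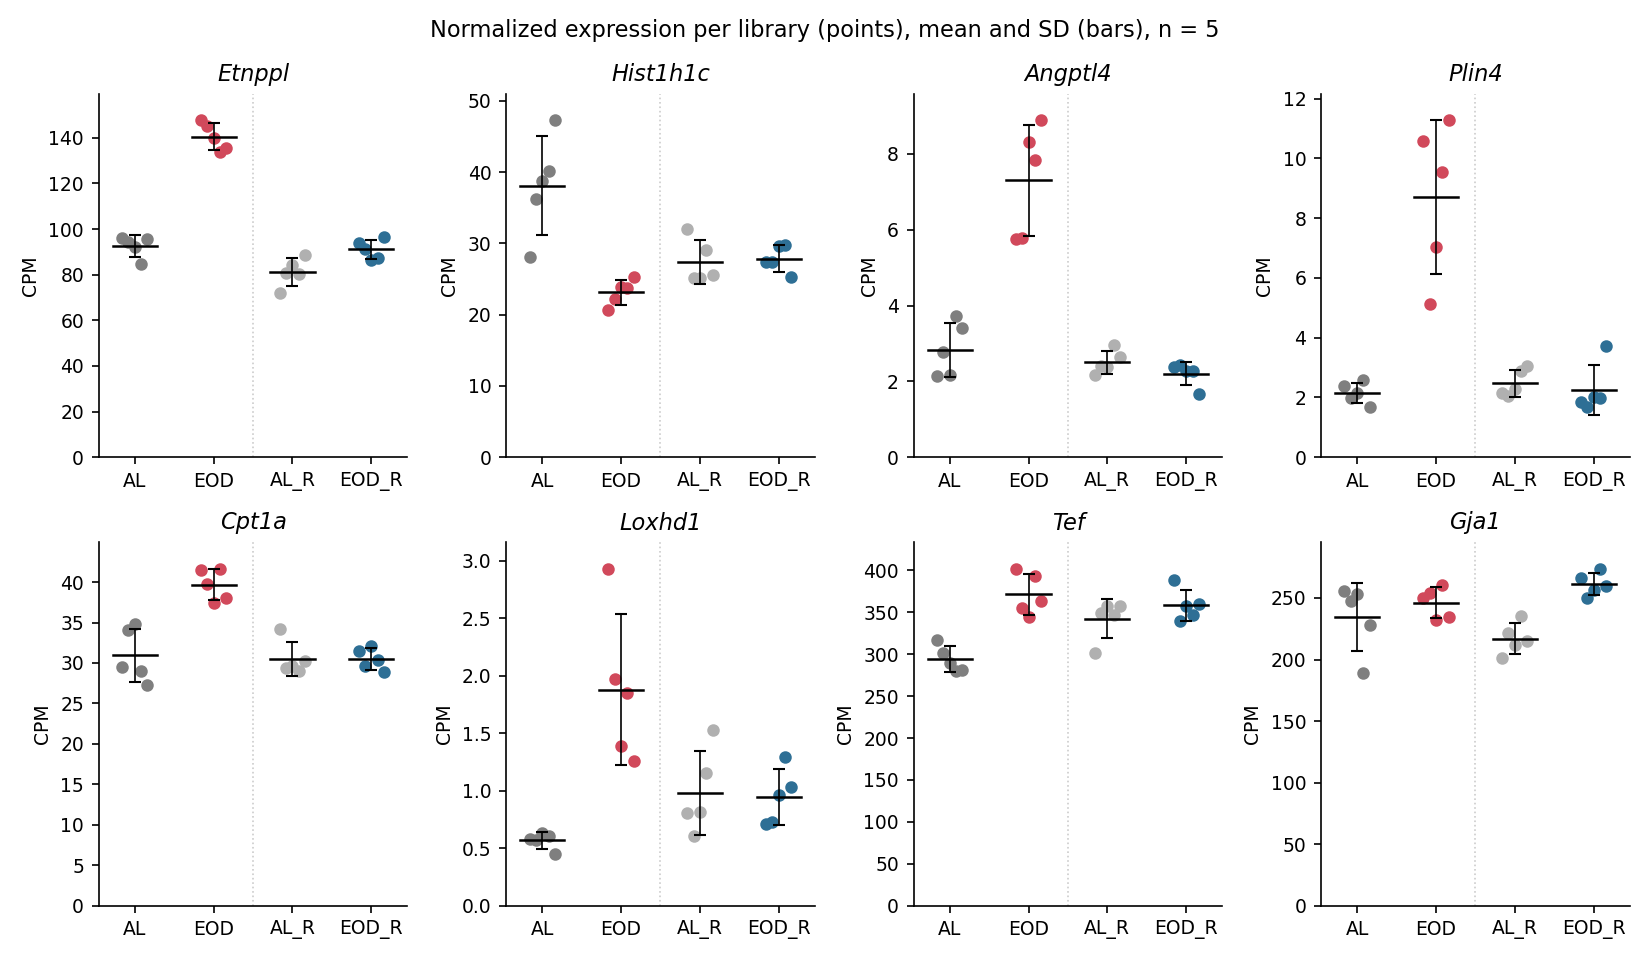
CPM (y axis) of 8 genes in each of the 20 libraries, by group (x axis), with a point per library and bars for the mean and SD (n = 5). EOD stands apart from AL in every gene but Gja1, and in Gja1 alone of these 8 EOD_R stands apart from AL_R.

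Hist1h1c (ENSMUSG00000036181, chromosome 13, 23738808 to 23740367), which encodes the replication-dependent linker histone H1.2, was lower under EOD. It was at 28.1, 36.3, 38.7, 40.2 and 47.2 CPM in AL and 20.7, 22.2, 23.8, 23.8 and 25.3 in EOD, with no overlap. In AL_R it was at 32.04, 25.1, 25.1, 29.1 and 25.5 and in EOD_R at 27.4, 27.4, 29.6, 29.7 and 25.2, where the groups overlapped. EOD minus AL was -0.72 (SE 0.11), EOD_R minus AL_R was 0.03 (SE 0.07, 95% interval -0.12 to 0.18), and the interaction was -0.74 (SE 0.13, 95% interval -1.02 to -0.47, adjusted p = 0.0494 by edgeR). More of this shift lay in the controls than in the fasted mice. Over all genes, too, more were called between AL and AL_R (23.9%) than between EOD and EOD_R (1.91%). From AL to AL_R Hist1h1c fell by 0.48 on the log2 scale (adjusted p = 0.00340), whereas EOD_R exceeded EOD by 0.27 (adjusted p = 0.149 by edgeR). The interaction was called in 4 of 20 fits without 1 library, those without AL replicate 1, EOD replicate 5, AL_R replicate 1 or EOD_R replicate 5, and reached adjusted p = 0.127 at most in the others. Its log2 value ranged from -0.83 to -0.65.

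Other histone genes leaned the same way. Of 12 clustered and linker histone genes tested, 6 had a negative interaction at an unadjusted p under 0.05 and none a positive one, with a list median of -0.36. Lower in EOD than AL at that threshold were 10 of 12, against 7.4% of all genes. After refeeding 1 was lower in EOD_R (Hist1h1e), against 3.99% of all genes. A further 5 genes of the list had too few counts to be tested. H1f0, the linker histone of non-dividing cells and the most abundant of the list, ranged from 259 to 324 CPM in AL, 201 to 237 in EOD, 246 to 319 in AL_R and 236 to 302 in EOD_R, so EOD lay below AL without overlap and the refed groups overlapped. Hist1h2be, a core H2B gene, had 4.88, 4.47, 5.25, 5.19 and 7.93 CPM in AL, 3.15, 3.71, 3.23, 3.72 and 3.98 in EOD, 4.56, 3.21, 4.04, 3.31 and 4.28 in AL_R and 3.47, 3.53, 4.31, 4.17 and 4.08 in EOD_R. Its EOD libraries were also all below AL. The interactions were -0.39 (SE 0.15) for H1f0 and -0.65 (SE 0.21) for Hist1h2be, and neither passed the adjusted test. The count of 6 fell to 3 without AL replicate 5 or without EOD replicate 4, to 2 with the length gradient of each library as a covariate, and to 3 without the 4 libraries of extreme gradient (AL replicates 4 and 5, EOD replicate 4 and 1 of the daily fast). Hist1h1c itself had -0.60 (adjusted p = 0.0472 by edgeR) with the covariate and -0.60 (adjusted p = 0.0831) without the 4 libraries. The length gradient is the slope of a library's log2 CPM on log2 gene length. Replication-dependent histone transcripts mostly lack a poly(A) tail, and the labels do not say how RNA was selected.

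Among fasting lipid genes, Angptl4 and Plin4 were higher in EOD than in AL, by 1.37 and 2.02 on the log2 scale, and lay at or near the range of the controls after refeeding. Angptl4 (ENSMUSG00000002289, chromosome 17, 33773750 to 33781575), a secreted inhibitor of lipoprotein lipase and a classical PPAR target, had 2.15, 2.76, 2.16, 3.71 and 3.41 CPM in AL, 5.74, 5.78, 8.31, 7.83 and 8.88 in EOD, 2.16, 2.39, 2.38, 2.96 and 2.63 in AL_R and 2.38, 2.42, 2.27, 2.26 and 1.66 in EOD_R. All EOD libraries exceeded all AL libraries, and the EOD_R libraries lay within or below the AL_R range. Its interaction was 1.56 (SE 0.30, adjusted p = 0.0754 by edgeR). That passes no adjusted threshold in the main fit, nor did it in any of 20 fits without 1 library. It did so in 7 of 13 other settings. Among these were the length gradient as covariate (adjusted p = 0.0472 by edgeR) and the fit without the 4 libraries of extreme gradient (adjusted p = 0.0206). Plin4 (ENSMUSG00000002831, chromosome 17, 56100591 to 56109803), which coats lipid droplets, had 2.38, 1.97, 2.13, 2.57 and 1.69 CPM in AL, 10.6, 5.11, 7.04, 9.53 and 11.3 in EOD, 2.16, 2.03, 2.28, 2.87 and 3.05 in AL_R and 1.84, 1.67, 2.01, 1.97 and 3.74 in EOD_R. Its EOD values were spread over a wider range than any other group's, yet none reached down to AL. The interaction was 2.16 (SE 0.49, adjusted p = 0.198 by edgeR), from 2.02 at the end of the regimen and -0.14 after refeeding. It was called in 4 of 13 other settings and in none of 20 fits without 1 library.

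In Cpt1a, Pdk4 and Txnip, too, every EOD library lay above every AL library, and the refed groups overlapped. Cpt1a, which carries fatty acids into mitochondria and limits their oxidation, ranged from 27.3 to 34.8 CPM in AL, 37.4 to 41.6 in EOD, 29.1 to 34.2 in AL_R and 28.8 to 32.1 in EOD_R. Its differences were 0.36 at the end of the regimen and 0.00 after refeeding, and the interaction was 0.36 (SE 0.09, adjusted p = 0.288). Pdk4, which shuts pyruvate out of the citric acid cycle in fasting, ranged from 5.98 to 8.94 CPM in AL, 11.4 to 15.5 in EOD, 6.76 to 7.39 in AL_R and 6.56 to 10.99 in EOD_R, with differences of 0.71 at the end of the regimen and 0.36 after refeeding and an interaction of 0.35 (SE 0.27). Txnip, an inhibitor of glucose uptake, ranged from 13.9 to 15.98 CPM in AL, 21.7 to 39.96 in EOD, 13.3 to 19.1 in AL_R and 11.5 to 22.3 in EOD_R, with an interaction of 0.83 (SE 0.30). None of these 3 interactions passed the adjusted test. Of 20 PPAR-type genes, 18 were tested (Fgf21 and Vnn1 were too low): 6 had a positive and 3 a negative interaction at an unadjusted p under 0.05, with a median of 0.07. The negative ones were Lpl (-0.79), Plin2 (-0.35) and Acot1 (-0.30). At that threshold 7 of 18 were higher and 1 lower in EOD than AL, against 7.02% and 7.4% of all genes. After refeeding 3 of 18 were still higher in EOD_R than AL_R and 0 lower, against 4.51% and 3.99% of all genes.

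Across broader fuel pathways, interactions at an unadjusted p under 0.05 went in both directions. Of 12 genes of ketone body use and monocarboxylate transport, 1 had a positive and 2 a negative interaction at an unadjusted p under 0.05, and of 19 fatty acid oxidation genes 1 and 2. Glycolysis and pyruvate entry had 3 positive of 24, Slc2a3 (0.23), Slc2a1 (0.63) and Pdha1 (0.26), the neuronal and the blood-brain barrier glucose transporters and a subunit of pyruvate dehydrogenase. Slc2a3 ranged from 137 to 153 CPM in AL, 159 to 182 in EOD, 154 to 162 in AL_R and 145 to 157 in EOD_R, so that EOD lay above AL and EOD_R overlapped AL_R. Of 17 genes of fatty acid synthesis and desaturation, 2 were positive (Elovl2 0.36, Elovl6 0.27) and 4 negative, among them the desaturase Fads2 (-0.31, SE 0.08) and Srebf1 (-0.35), the regulator of lipid synthesis. List medians lay between -0.08 and -0.01, against -0.00479 for all genes. Interactions above 0 were 6 of 12, 5 of 19, 8 of 24 and 8 of 17 in the order of the lists, against 49.0% of all genes. Of the EOD_R minus AL_R differences, 8, 17, 8 and 12 were above 0, against 50.3% of all genes.

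Glucocorticoid-induced genes were mostly higher in EOD than AL, and none was higher in EOD_R than AL_R at an unadjusted p under 0.05. Of 18, 11 had a positive interaction at an unadjusted p under 0.05 and 0 a negative one, against 4.86% and 5.48% of all genes, with 17 of 18 values above 0 and a median of 0.68. EOD exceeded AL at that threshold for 15 of 18 (median log2 difference 0.71), against 7.02% of all genes. EOD_R exceeded AL_R for 0 of 18 (median -0.03), against 4.51% of all genes. No member passed the adjusted test of the interaction: the smallest adjusted p was 0.261 by edgeR, for Sult1a1. Fkbp5, a chaperone of the glucocorticoid receptor and one of its most inducible targets, had 9.50, 6.78, 7.87, 9.87 and 8.15 CPM in AL, 15.5, 10.5, 9.91, 15.4 and 23.1 in EOD, 6.81, 7.76, 10.3, 10.8 and 13.3 in AL_R and 6.93, 7.27, 8.18, 9.06 and 8.13 in EOD_R. Its EOD libraries all exceeded AL, and all EOD_R libraries lay within the range of AL_R. The interaction was 1.13 (SE 0.36). Sult1a1, a sulfotransferase, had 4.97, 4.59, 5.71, 6.13 and 4.998 CPM in AL, 8.75, 5.55, 9.57, 9.23 and 10.7 in EOD, 5.06, 4.91, 5.73, 5.80 and 6.22 in AL_R and 4.59, 5.19, 3.74, 4.34 and 5.59 in EOD_R, with EOD replicate 2 inside the AL range and an interaction of 0.97 (SE 0.24). Mertk, a phagocytic receptor, had 0.82 (SE 0.26), the kinase Sgk1 0.93 (SE 0.37), the transcription factor Zbtb16 1.94 (SE 0.78), Klf15 0.60 (SE 0.25) and Tsc22d3 0.53 (SE 0.27). Sgk1 ranged from 54.6 to 74.4 CPM in AL, 76.3 to 151 in EOD, 56.5 to 108 in AL_R and 56.97 to 101 in EOD_R, and Tsc22d3 from 81.4 to 103 CPM in AL, 107 to 158 in EOD, 64.4 to 111 in AL_R and 65.5 to 117 in EOD_R. In both, EOD was above AL without overlap and EOD_R spanned much the same range as AL_R. The count of 11 was 7 without EOD replicate 5 or AL_R replicate 5, 8 with the length gradient as covariate and 10 without the 4 libraries of extreme gradient.

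The metallothionein genes Mt1 and Mt2, metal-binding proteins that glucocorticoids and zinc induce, had positive interactions as well. Mt2 had 115, 73.6, 112, 191 and 161 CPM in AL, 229, 192, 277, 208 and 268 in EOD, 92.7, 94.9, 120.1, 128 and 146 in AL_R and 62.5, 74.8, 94.7, 94.8 and 132 in EOD_R, with all EOD libraries above AL and the refed groups overlapping. Its interaction was 1.19 (SE 0.32, adjusted p = 0.288 by edgeR). Mt1 ranged from 181 to 393 CPM in AL, 385 to 575 in EOD, 198 to 273 in AL_R and 184 to 273 in EOD_R, with an interaction of 0.80 (SE 0.22) and overlap of EOD with AL. The zinc importer Slc39a14 was the other of 3 members of 8 with a positive interaction at an unadjusted p under 0.05 (0.32), and the list's median was 0.14.

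Of the clock repressors 8 of 10 were higher in EOD than AL at an unadjusted p under 0.05, against 7.02% of all genes. After refeeding 0 of 10 were higher in EOD_R than AL_R, near the 4.51% of all genes. All 10 genes of the repressor arm had a positive interaction value, 3 of them at an unadjusted p under 0.05 (Ciart, Nr1d2 and Bhlhe40), with a median of 0.21. Ciart, whose promoter holds 3 E-boxes, had 10.2, 12.1, 9.69, 11.7 and 11.5 CPM in AL, 17.4, 14.6, 13.6, 17.03 and 14.8 in EOD, 12.8, 14.1, 14.5, 15.3 and 16.7 in AL_R and 15.02, 13.8, 15.7, 13.5 and 15.3 in EOD_R. EOD was above AL in every library, and both refed groups lay above all AL libraries. Its interaction was 0.49 (SE 0.13, adjusted p = 0.288 by edgeR). From AL to AL_R it rose by 0.41 (adjusted p = 0.00669), while EOD_R differed from EOD by -0.08 (adjusted p = 0.727). Nr1d2, which encodes REV-ERB beta, overlapped between EOD and AL in 1 library of each, and here too AL_R exceeded AL by 0.42 (adjusted p = 0.00504), and EOD_R minus EOD was 0.00 (adjusted p = 0.998). In both genes the change between tables was larger in the freely fed controls than in the fasted mice. The same held over all genes: 23.9% were called in AL_R against AL and 1.91% in EOD_R against EOD. The median absolute log2 differences were 0.178 and 0.104, so this is not particular to clock genes. The hour of collection is not given for either table, and its part was not tested.

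Per1 (ENSMUSG00000020893, chromosome 11, 69095217 to 69109960) had 121, 132, 109.5, 91.9 and 97.95 CPM in AL, 177, 187, 173, 224 and 149 in EOD, 63.8, 151, 197, 124 and 135 in AL_R and 82.6, 125, 206, 153 and 164 in EOD_R. EOD stood above AL without overlap, but the refed groups spanned a wider range, from 63.8 to 206 CPM, and the interaction was 0.59 (SE 0.30, adjusted p = 0.490 by edgeR). Per2 spread in the same way, over 26.2 to 60.7 CPM in AL, 59.5 to 96.5 in EOD, 30.96 to 67.1 in AL_R and 31.7 to 80.1 in EOD_R, with an interaction of 0.72 (SE 0.37). Tef (ENSMUSG00000022389, chromosome 15, 81802421 to 81826861), a PAR bZIP output gene with an E-box in its promoter, had 317, 302, 289.7, 280.1 and 282 CPM in AL, 402, 355, 344, 393 and 363 in EOD, 302, 349, 357, 346 and 358 in AL_R and 388, 339, 357, 346 and 360.2 in EOD_R. Its interaction was 0.27 (SE 0.07, adjusted p = 0.288), and AL_R exceeded AL by 0.22 (adjusted p = 0.00754 by edgeR). Hlf, a second PAR bZIP gene, had 0.29 (SE 0.13). Arntl, the activator, had the opposite sign, -0.24 (SE 0.08), from 40.6 to 48.6 CPM in AL, 36.2 to 41.5 in EOD, 38.04 to 46.2 in AL_R and 42.4 to 44.4 in EOD_R. Of 10 activator and output genes, 2 were positive and 1 negative at an unadjusted p under 0.05. The repressor count of 3 rose to 5 without AL replicate 1, EOD replicate 3 or EOD_R replicate 5, to 6 without AL replicate 2 and to 8 without AL_R replicate 1, the library with the lowest Per1 and Tef of its group. Without AL replicate 1 the positive interactions over all genes rose as well, from 820 to 1856.

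**Figure D3:**
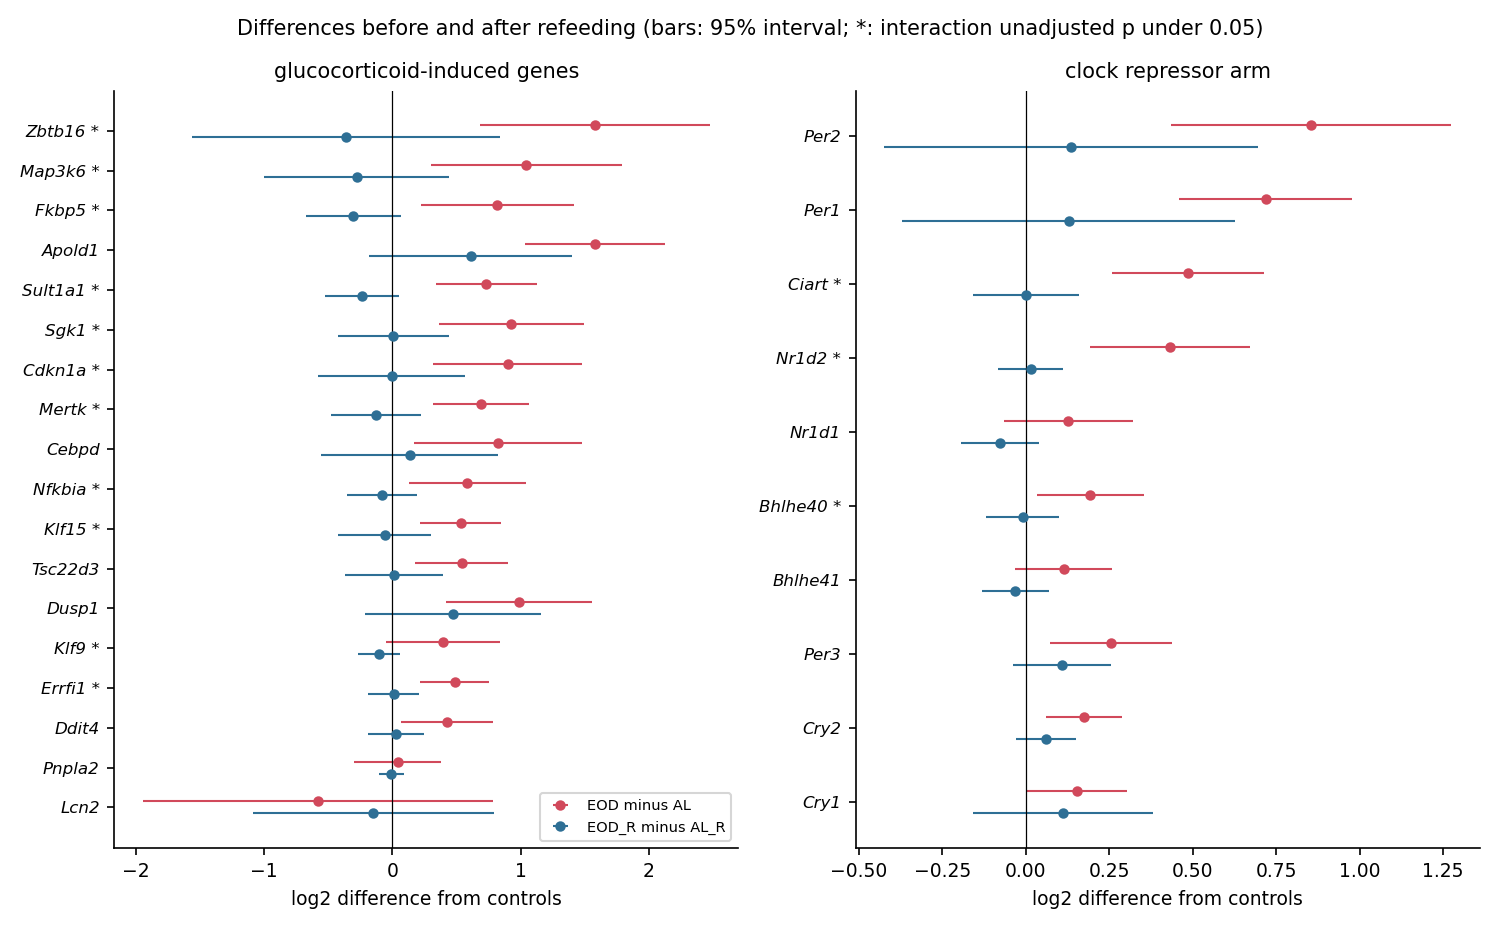
Log2 differences of glucocorticoid-induced and clock genes, EOD minus AL (red) and EOD_R minus AL_R (blue), with 95% intervals; each row is 1 gene, and an asterisk marks an unadjusted interaction p under 0.05. Most values at the end of the regimen lie above 0, while those after refeeding cluster around 0, with list medians of -0.03 and 0.04 for the glucocorticoid and repressor lists.

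Some cholesterol genes were lower in EOD than AL at an unadjusted p under 0.05, and none was lower in EOD_R than AL_R. Of 25 genes of synthesis and uptake, 10 had a negative interaction at that threshold and 0 a positive one, with 21 of 25 values below 0 and a median of -0.16. EOD was below AL at that threshold for 8 (median -0.12), against 7.4% of all genes, and EOD_R was below AL_R for 0, against 3.99%. After refeeding 22 of 25 values were above 0 (median 0.08) and 1 gene was higher, Stard4. No member passed the adjusted test, the smallest adjusted p being 0.297 by edgeR for Msmo1. Msmo1, a sterol demethylation enzyme, had 30.3, 24.9, 30.8, 33.2 and 29.8 CPM in AL, 24.6, 25.3, 26.5, 23.6 and 23.7 in EOD, 26.4, 31.4, 29.999, 31.7 and 27.6 in AL_R and 26.99, 32.6, 34.5, 32.3 and 33.6 in EOD_R. AL replicate 2 lay inside the EOD range, and 4 of 5 EOD_R libraries were above every AL_R library. Its interaction was -0.39 (SE 0.11). Sqle, squalene epoxidase and a controlling step of the pathway, ranged from 31.5 to 40.2 CPM in AL, 25.8 to 29.95 in EOD, 31.5 to 35.4 in AL_R and 31.2 to 35.9 in EOD_R, with EOD below AL and the refed groups overlapping; its interaction was -0.32 (SE 0.10). Also negative, among others, were Fdft1, Mvd, Mvk, Pmvk, Fdps, Insig1 and Hmgcs1, between -0.41 and -0.16. The count was 5 with the length gradient as covariate and 6 without the 4 libraries of extreme gradient, against 3.24% and 3.34% of all genes. Some glial markers had negative interactions too. At an unadjusted p under 0.05 these were 4 of 7 oligodendrocyte markers (median -0.21) and 4 of 10 astrocyte and Bergmann glia markers (median -0.12), with 0 positive. The median EOD minus AL difference was 0.03 for the astrocyte and Bergmann glia list (6 of 10 above 0). For oligodendrocyte markers it was -0.06 (0 of 7 above 0). The part of glial markers in the cholesterol values was not tested.

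**Figure D4:**
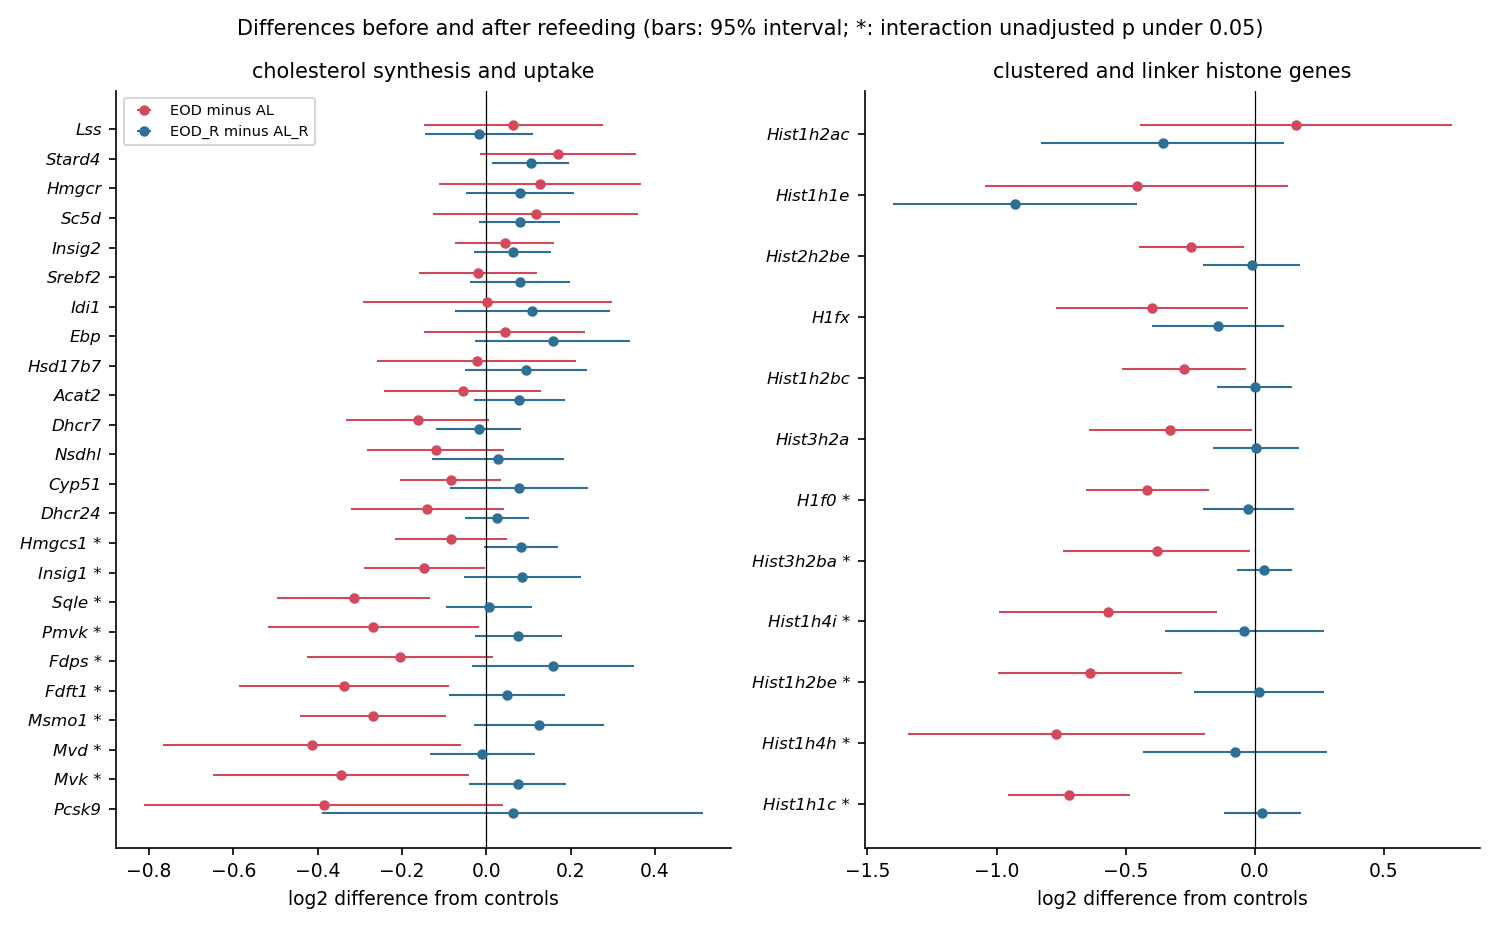
Log2 differences of cholesterol and histone genes, EOD minus AL (red) and EOD_R minus AL_R (blue), with 95% intervals and 1 row per gene named here; an asterisk marks an unadjusted interaction p under 0.05. Most red points lie to the left of 0, and after refeeding the list medians are 0.08 and -0.02.

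Of 20 genes of insulin, IGF and FOXO signalling, 5 had a positive interaction at an unadjusted p under 0.05 and 0 a negative one, with a median of 0.20: the binding proteins Igfbp5 (0.42, SE 0.13) and Igfbp3 (0.41), the insulin receptor Insr (0.29), Foxo3 (0.32) and Pik3r1 (0.18). Igfbp5 ranged from 185 to 256 CPM in AL, 254 to 340.0 in EOD, 248 to 276 in AL_R and 233 to 260.4 in EOD_R. AL replicates 4 and 5 were its lowest libraries, and without either of them, or without EOD replicate 4, 2 of the 5 were left, while the positive interactions over all genes fell from 820 to between 430 and 533. The count was also 2 with the length gradient as covariate, and 3 without EOD replicate 5, AL_R replicate 2, 3 or 4, or EOD_R replicate 3 or 5. Immediate early genes, which neurons switch on within minutes of activity, had interactions of both signs. At an unadjusted p under 0.05, 11 of 21 were higher and 3 lower in EOD than AL, against 7.02% and 7.4% of all genes. After refeeding 4 were higher, among them Jun, Btg2 and Atf3, and 0 lower, against 4.51% and 3.99% of all genes. The list's median difference was 0.33 at the end of the regimen and 0.32 after refeeding, with 15 and 17 of 21 values above 0. Of the interactions 1 was positive, Dusp6 (0.47), and 3 were negative, Egr3 (-2.04), Ier5 (-0.38) and Arc (-0.33). Egr3 was barely detected, with means of 0.54 CPM in AL, 0.24 in EOD, 0.28 in AL_R and 0.52 in EOD_R. Its AL replicate 1 stood at 1.28 CPM. Amino acid response genes had 1 positive of 20, the transporter Slc7a5 (0.43), and 1 negative, the serine synthesis enzyme Phgdh (-0.38). Heat shock and cold-inducible genes had 0 of 15 in either direction. Among 20 writers, erasers and readers of H3K9 methylation, the chromatin mark the study also profiled, 1 had a positive interaction, the methyltransferase Ehmt1 (0.16, SE 0.07), and none passed the adjusted test.

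**Figure D5:**
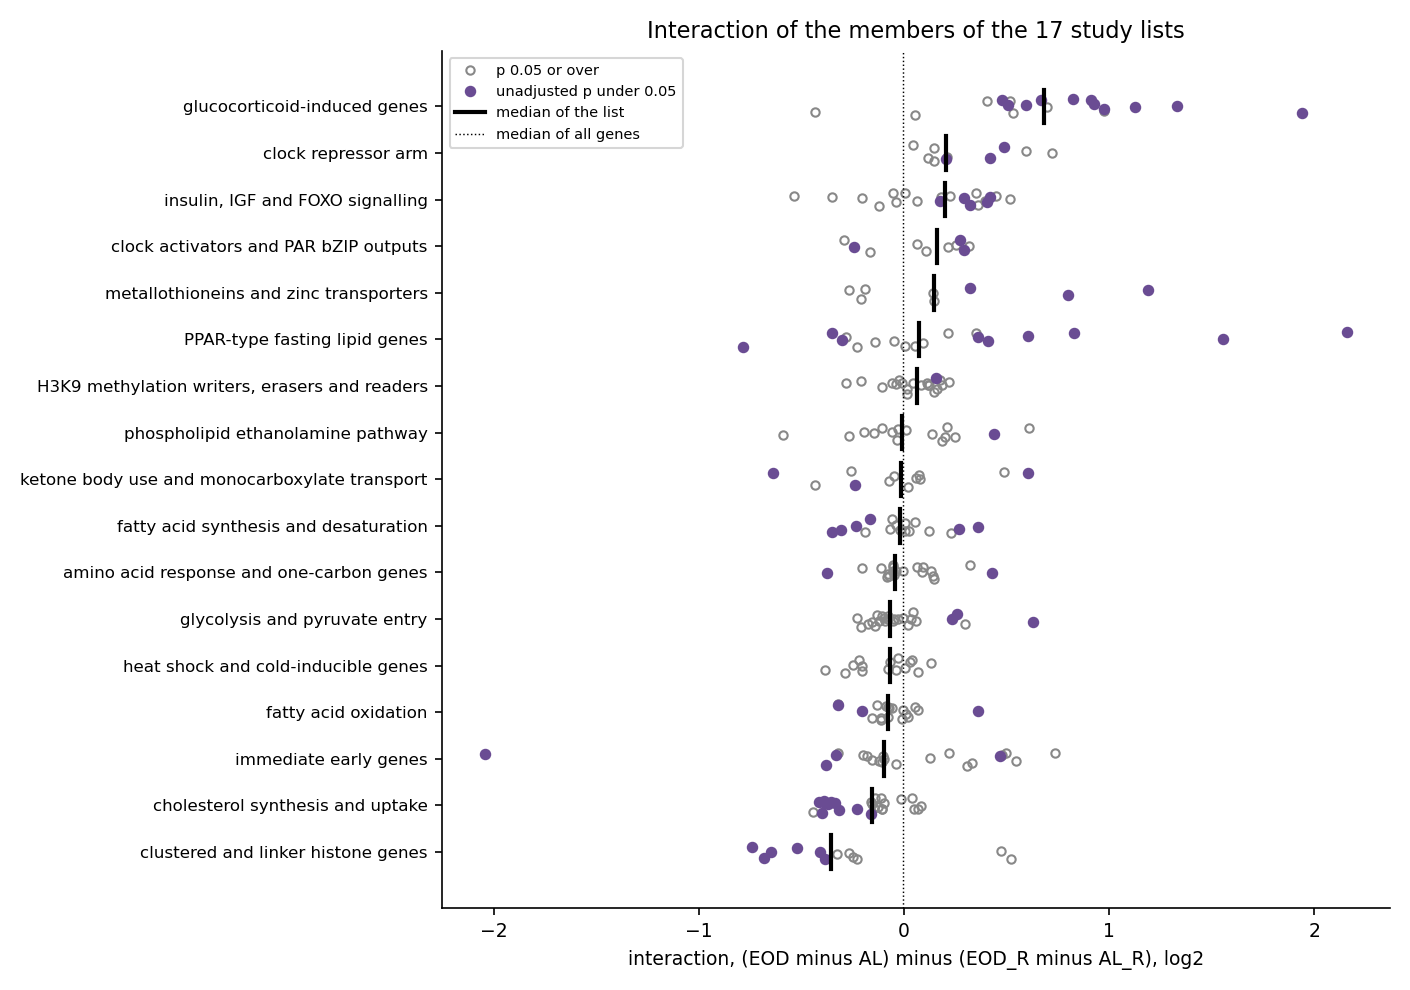
Interaction (log2) of every tested gene on each list, with 1 point per gene, filled where the unadjusted p was under 0.05; the thick bar is the list's median and the dotted line that of all genes. Medians run from -0.36 for histones and -0.16 for cholesterol genes to 0.68 for glucocorticoid-induced genes.

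Of the 7 genes called in EOD_R against AL_R, 0 were among the 11 called in EOD against AL, from which nothing is read at 0.0426% and 0.0664% of genes called. For all of them but Ednrb and Kndc1 both differences had the same sign. All 7 had an adjusted p of 0.0427 by edgeR after refeeding, and none passed the test of the interaction. Gja1 (ENSMUSG00000050953, chromosome 10, 56377300 to 56390419), connexin 43 of astrocyte gap junctions, had 256, 248, 253, 189 and 228 CPM in AL, 249.8, 254, 232, 261 and 235 in EOD, 201, 222, 212, 235 and 215 in AL_R and 267, 250.4, 257, 274 and 259.8 in EOD_R. The EOD_R libraries were all above AL_R, whereas EOD and AL overlapped, with differences of 0.07 at the end of the regimen and 0.27 after refeeding and an interaction of -0.20 (SE 0.10). Ednrb (ENSMUSG00000022122, chromosome 14, 103814625 to 103844173), the endothelin B receptor of astrocytes and Bergmann glia, had 108, 113, 108, 96.2 and 96.1 CPM in AL, 97.3, 108, 95.4, 106 and 97.5 in EOD, 100.4, 108, 97.1, 104 and 108 in AL_R and 126, 127, 119.7, 131 and 116 in EOD_R. EOD_R exceeded every library of the other 3 groups. The interaction was -0.31 (SE 0.07, adjusted p = 0.240 by edgeR), and EOD_R exceeded EOD by 0.30 (adjusted p = 0.00221). Aqp4, the astrocyte water channel, ranged from 181 to 273 CPM in AL, 208 to 272 in EOD, 242 to 266 in AL_R and 273 to 315 in EOD_R, also above AL_R without overlap in EOD_R (0.20, SE 0.04), but did not pass the adjusted test. Of 10 astrocyte and Bergmann glia markers, 5 were higher in EOD_R than AL_R at an unadjusted p under 0.05, against 4.51% of all genes. Gja1 is itself among these 5, and the part of the other markers in the Gja1 and Ednrb differences was not tested.

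The other 5 genes were higher or lower in every EOD_R library than in every AL_R library. Kndc1 (ENSMUSG00000066129, chromosome 7, 139894696 to 139941537), a Ras exchange factor abundant in cerebellum, had 256, 274, 261, 226 and 248 CPM in AL, 268, 262, 255, 319 and 283 in EOD, 303, 296, 304, 295 and 316 in AL_R and 264, 263, 257, 264 and 247 in EOD_R, so AL_R stood above all but 1 library of the other groups. Its differences were 0.13 at the end of the regimen and -0.22 after refeeding, with an interaction of 0.36 (SE 0.09, adjusted p = 0.261 by edgeR). Synpr (ENSMUSG00000056296, chromosome 14, 13284780 to 13615459), a synaptic vesicle protein, ranged from 49.4 to 61.5 CPM in AL, 42.9 to 66.5 in EOD, 49.4 to 59.7 in AL_R and 63.2 to 70.2 in EOD_R. Dnah11 (ENSMUSG00000018581, chromosome 12, 117877982 to 118199043), an axonemal dynein, ranged from 11.6 to 22.6 CPM in AL, 19.03 to 22.3 in EOD, 19.3 to 22.1 in AL_R and 23.7 to 28.02 in EOD_R, with AL replicates 4 and 5 far below the rest. Frmpd3 (ENSMUSG00000042425, chromosome X, 140367494 to 140394540) ranged from 10.7 to 15.2 CPM in AL, 11.3 to 13.3 in EOD, 13.97 to 16.7 in AL_R and 9.68 to 13.04 in EOD_R, and Ptpn5 (ENSMUSG00000030854, chromosome 7, 47077798 to 47133684), a neuronal phosphatase, from 26.5 to 37.7 CPM in AL, 19.3 to 30.8 in EOD, 24.2 to 31.1 in AL_R and 19.2 to 21.99 in EOD_R. Ptpn5 had an interaction of 0.10 (SE 0.14, 95% interval -0.19 to 0.39), from -0.26 at the end of the regimen and -0.36 after refeeding. The 7 calls lay near the threshold, and leaving out 1 of the 10 libraries moved the differences little (from 0.25 to 0.31 for Gja1 and from -0.47 to -0.36 for Frmpd3) but ended most calls. It kept Gja1 in 2 fits, Ednrb, Kndc1, Ptpn5 and Synpr in 1 each, and Dnah11 and Frmpd3 in 0. Over all genes, edgeR called 0 without any 1 of AL_R replicates 1, 2, 3 or 5 or EOD_R replicates 2 to 5 (1110 to 1447 genes at an unadjusted p under 0.05), 2 without AL_R replicate 4 and 16 without EOD_R replicate 1.

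Also called in EOD against AL were Plat, Apold1 and Fcrls, each with a smaller difference of the same sign after refeeding. In Apold1 and Fcrls the shift between tables lay in the controls, between which 23.9% of all genes were called, against 1.91% between EOD and EOD_R. Mean Apold1 was 3.10 CPM in AL and 6.29 in AL_R, but 9.25 in EOD and 9.54 in EOD_R. Mean Fcrls was 4.65 CPM in AL and 3.11 in AL_R, but 2.66 in EOD and 2.65 in EOD_R. Plat (ENSMUSG00000031538, chromosome 8, 22757744 to 22782847), tissue plasminogen activator, had 57.3, 53.2, 54.2, 48.2 and 51.8 CPM in AL, 77.5, 72.1, 71.7, 71.7 and 66.1 in EOD, 41.2, 45.8, 52.9, 50.5 and 50.7 in AL_R and 42.2, 48.7, 60.8, 61.7 and 68.4 in EOD_R. EOD was above AL throughout, and EOD_R overlapped AL_R although its highest library, at 68.4 CPM, reached the EOD range. The difference after refeeding was 0.23 (SE 0.12), 51.97% of that before, and the interaction 0.21 (SE 0.16, 95% interval -0.11 to 0.54). Apold1 (ENSMUSG00000090698, chromosome 6, 134982001 to 134986836), an early response gene of vascular endothelium, had 3.95, 3.05, 3.14, 3.20 and 2.13 CPM in AL, 5.97, 7.62, 12.9, 12.2 and 7.51 in EOD, 4.04, 9.43, 8.53, 4.85 and 4.61 in AL_R and 2.52, 9.51, 16.2, 11.001 and 8.44 in EOD_R. The refed groups were both wide and overlapped, with an interaction of 0.98 (SE 0.51, adjusted p = 0.494 by edgeR). Fcrls (ENSMUSG00000015852, chromosome 3, 87250758 to 87263738), a microglial surface protein, was lower in EOD, with 4.74, 4.33, 3.46, 5.98 and 4.74 CPM in AL, 2.67, 2.61, 2.95, 2.56 and 2.49 in EOD, 3.98, 3.27, 2.15, 2.90 and 3.26 in AL_R and 3.23, 2.58, 2.01, 3.07 and 2.35 in EOD_R. Its interaction was -0.57 (SE 0.21, adjusted p = 0.449 by edgeR). Microglia markers moved with Fcrls: 5 of 9, Fcrls included, had a negative interaction at an unadjusted p under 0.05, among them C1qa (-0.47) and Aif1 (-0.56), and none was at 0 in every library. Their summed levels were 120.2 to 150.4 CPM in AL, 111 to 122 in EOD, 109 to 121 in AL_R and 117 to 128 in EOD_R. The count was 3 without EOD replicate 5 or EOD_R replicate 4, 3 with the length gradient as covariate and 2 without the 4 libraries of extreme gradient. Their part in the Fcrls value was not tested.

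Loxhd1 (ENSMUSG00000032818, chromosome 18, 77281958 to 77442341), best known as a stereocilia protein of the inner ear, had 0.581, 0.570, 0.635, 0.604 and 0.446 CPM in AL, 2.93, 1.97, 1.38, 1.85 and 1.26 in EOD, 0.802, 0.606, 0.814, 1.15 and 1.53 in AL_R and 0.714, 0.724, 0.958, 1.29 and 1.04 in EOD_R. EOD lay above AL, and the EOD_R and AL_R libraries overlapped. Its interaction was 1.76 (SE 0.35, adjusted p = 0.0902 by edgeR). Further genes with the smallest p and a positive interaction were Ctla2a, a cathepsin inhibitor (0.61, SE 0.14, from 3.50 to 4.20 CPM in AL, 4.84 to 5.84 in EOD, 3.70 to 4.58 in AL_R and 3.30 to 4.30 in EOD_R), and Slc24a4, a potassium-dependent sodium-calcium exchanger (0.96, SE 0.23, from 2.32 to 3.43 CPM in AL, 3.42 to 5.81 in EOD, 1.98 to 3.03 in AL_R and 1.98 to 2.78 in EOD_R). Their EOD levels were above those of AL, in Slc24a4 with overlap, and the refed groups overlapped; neither passed the adjusted test.

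On the negative side, the genes with the smallest p after Hist1h1c failed the adjusted test, and several were highest in the same AL libraries. Col2a1, a fibrillar collagen, had an interaction of -0.92 (SE 0.19, adjusted p = 0.0902 by edgeR), from -0.62 at the end of the regimen and 0.30 after refeeding. Its libraries were at 7.55, 10.2, 8.39, 8.33 and 13.4 CPM in AL, 5.15, 5.65, 6.06, 7.83 and 6.36 in EOD, 6.11, 7.09, 6.48, 8.23 and 6.64 in AL_R and 9.35, 7.93, 8.85, 8.19 and 8.29 in EOD_R. The serpin gene Serpinb1a had -0.78 (SE 0.16), from 14.6 to 19.1 CPM in AL, 9.97 to 15.8 in EOD, 9.37 to 11.9 in AL_R and 13.8 to 14.8 in EOD_R, with EOD_R above AL_R without overlap. Tubb2b, a tubulin of growing neurites, had 129.8, 156, 150.2, 190.0 and 199.9 CPM in AL, 113, 117, 114, 119 and 118 in EOD, 133, 131, 129.7, 150.4 and 147 in AL_R and 135, 139, 145, 149.7 and 143 in EOD_R, with EOD below AL, overlap of the refed groups and an interaction of -0.55 (SE 0.12). Asgr1 had -0.73, the prolactin family gene Prl2c3, which has near-identical copies that may share reads, -0.92, and the calcium-binding protein gene Cib2 -0.52. In AL the libraries highest in Serpinb1a, Tubb2b, Asgr1 and Cib2 were replicates 4 and 5, those with the lowest length gradients of the group (-0.158 and -0.106). Without the 4 libraries of extreme gradient the interactions were -0.56 for Serpinb1a, -0.37 for Tubb2b, -0.49 for Asgr1 and -0.36 for Cib2. Col2a1 had -0.88 and Prl2c3 -0.90, so these 2 were as large without those libraries, and Col2a1 then passed the adjusted test (adjusted p = 0.0413 by edgeR). Oligodendrocyte markers lay on the same side: 4 of 7 had a negative interaction at an unadjusted p under 0.05, led by Opalin (-0.99, SE 0.27), with a median of -0.21 and none at 0 in every library. Their sums were 5622 to 6572 CPM in AL, 5450.3 to 6076 in EOD, 4924 to 5444 in AL_R and 5460.5 to 6509 in EOD_R. The count was 2 without AL_R replicate 1 or EOD_R replicate 5 and 3 without the 4 libraries. Their part in these interactions was not tested.

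A wider set of genes was described by sign alone. Of 81 genes at an unadjusted p under 0.001 in EOD against AL (45 higher and 36 lower), 55 had the same sign in EOD_R against AL_R (67.9%, Wilson 95% interval 57.1% to 77.1%). Their median absolute difference was 0.60 on the log2 scale at the end of the regimen and 0.05 in the same direction after refeeding. After refeeding 8 reached an unadjusted p under 0.05 with the same sign and 0 with the opposite sign. Choosing genes by 1 of 2 differences makes that one larger, so the same was done in reverse. Of 77 genes at an unadjusted p under 0.001 in EOD_R against AL_R, 40 had the same sign in EOD against AL (51.9%, interval 40.96% to 62.7%), with medians of 0.22 and 0.01. Over all 16320 genes tested in both tables the shared sign was 54.6%. Genes are not independent, so the intervals cover counting only. At an unadjusted p under 0.001 for the interaction itself stood 55 genes, of which 54 were tested in both tables. The EOD difference was the larger of the pair for 47 of them and the EOD_R difference for 7, and the pair had opposite signs for 48. For 16, the difference after refeeding was under 1 in 5 of that before. These genes were chosen by the interaction in the same libraries, which by itself favours opposite signs. The wider spread at the end of the regimen favours a larger EOD difference. Nothing is therefore read from these counts.

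The libraries were deep, with 26799825 to 36167435 counts each. Purkinje markers summed to between 5899 and 8584 CPM and granule cell markers to between 6851 and 7864. Choroid plexus RNA varied between libraries of every group: its markers summed to 182 to 5125 CPM in AL, 1182 to 3905 in EOD, 165 to 2773 in AL_R and 165 to 3042 in EOD_R, and the interaction of their mean log2 level was 0.568 (exact permutation p = 0.670, two-sided). With that level as a covariate Etnppl had 0.45 and Hist1h1c -0.77. The length gradient had an interaction of 0.0769 (exact permutation p = 0.183, two-sided). Red blood cell markers summed to 11.01 to 58.1 CPM in AL, 22.6 to 45.02 in EOD, 8.70 to 114 in AL_R and 14.8 to 25.5 in EOD_R. All 5 were lower in EOD_R than AL_R at an unadjusted p under 0.05, against 3.99% of all genes. Of 7 endothelial markers, 2 had a negative interaction at an unadjusted p under 0.05 (Cldn5 -0.85, Itm2a -0.33) and 0 a positive one. The shares of all genes were 5.48% and 4.86%. Without a threshold 4 of the 7 values were above 0, with a median of 0.06, and the endothelial gene Apold1 also had a positive value.

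The same interaction for mice on the daily 16 h fast shares the AL and AL_R controls, so the values stand side by side. Etnppl had 0.24 (SE 0.07) there and 0.44 for alternate days, and the difference of the 2 interactions was 0.20 (SE 0.07, adjusted p = 0.542) by edgeR. Hist1h1c had -0.28, with a difference of -0.46 (SE 0.13, adjusted p = 0.542). Tef, with 0.37 for the daily fast, passed the adjusted test there (adjusted p = 0.0454 by edgeR) and not for alternate days. By edgeR, 0 of 16877 genes (0.0%) differed between the interactions of the regimens at an adjusted p under 0.05, and 1414 did at an unadjusted p under 0.05.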

How the data were processed

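RNA-seq read counts per gene from mouse cerebellum were used. The authors deposited whole-number counts in 2 tables, one per collection, each with 35275 genes, their Ensembl identifiers and positions. The submitters' processing notes name STAR 2.5, HTSeq 0.6.1, DESeq2 and the build mm10, without saying which step each served; counting by strand is not given in the sources used here. Overlapping, antisense or near-identical genes may share reads. A list of mouse gene names held 34490 of these identifiers. The 12 chromatin samples were not analysed here.

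The 2 tables were joined on gene ID. All 30 RNA libraries were fitted together for the interaction, and each table's 15 libraries for its own difference, with TMM factors, the filterByExpr filter and edgeR 4.0.16's quasi-likelihood test in R 4.3.3. A gene was called at a Benjamini-Hochberg adjusted p under 0.05. Standard errors come from the F statistic. CPM values are TMM-scaled over the 30 libraries. Interval bounds are 95%. Replicates were compared in 60 pairs by a chi-square over genes averaging 50 counts or more; per degree of freedom it was 4.25 to 135, above sampling noise in each pair. Single library scores were tested by exact permutation. Alternatives were other size factors and filters, DESeq2 1.42.0, voom of limma 3.58.1, covariates, a replicate block, and leaving out libraries. On simulated counts, 91 of 100 interactions of log2 size 1 and 97 of 100 of size 2 were recovered, among 16788 genes. The same fit called 6 unchanged genes. The simulation gave each gene the same spread in all groups and planted changes only in genes averaging at least 1 CPM. The real tables differed in spread, so these shares do not give the detection rate in the real libraries. Plin4, with an interaction of 2.16, was not called in the main fit of them.

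Genes are named where they were called in the interaction or in either difference, were among the 8 smallest p in each direction of the interaction (mean of at least 1 CPM in 1 group, no predicted genes), or had the smallest interaction p of a list (the 3 smallest for the clock, PPAR-type and glucocorticoid lists). Other list members are examples chosen after their values were seen. A few genes that the rule or the lists took are not reported here by name, though counts and medians include them. The members, the 17 study lists (290 genes) and the 14 marker lists were chosen with earlier results of these data known.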

Additional observations from a re-analysis of the deposited data

Results flagged for a closer look

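The EOD effect differed between the regimen and refeeding by the test of the difference itself for 2 genes, Etnppl (interaction 0.44 on the log2 scale) and Hist1h1c (-0.74).

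In 7 of 172 groups of 5 libraries looked at, 1 library lay apart from the other 4; chance alone gives about 1 in 20. AL_R replicate 1 was low in Tef (302 CPM, others 346 to 358) and high in Ptpn5 (31.1, others 24.2 to 25.7) and Cpt1a (34.2, others 29.1 to 30.2). EOD_R replicate 5 was low in Angptl4 (1.66 CPM, others 2.26 to 2.42) and high in Plin4 (3.74, others 1.67 to 2.01). AL_R replicate 4 was low in Slc24a4 (1.98 CPM, others 2.77 to 3.03), and AL replicate 4 was low in Bhlhe40 (70.1 CPM, others 77.0 to 78.5).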

How the results depend on the processing

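The 2 genes called in the interaction became 1 with upper-quartile factors and with voom (also with a variance of its own per table), 4 without a filter, 6 with the length gradient as covariate, 14 with DESeq2 (4 positive, 10 negative) and 4 without the 4 libraries of extreme gradient. Leaving out 1 library gave 0 to 6 calls, 0 without EOD replicate 1 or 2, AL replicate 4, EOD_R replicate 3 or 4 or AL_R replicate 3 or 5. Etnppl was not called when the 10 libraries of the daily fast were left out of the fit (adjusted p = 0.0657 by edgeR). The 11 genes called in EOD against AL became 7 with RLE factors, 133 with DESeq2, 5 with voom, 7 with the length gradient, 18 with the choroid covariate, 188 in the joint fit, 2 without the 4 libraries (an alternative chosen after seeing the data) and 2 to 6 without 1 library. The 7 called in EOD_R against AL_R became 0 with upper-quartile factors, the length gradient or the joint fit, 11 without a filter, 87 with DESeq2, 12 with voom, 16 with the choroid covariate and 0 to 16 without 1 library. At an unadjusted p under 0.0001, the genes chosen after refeeding shared their sign at the end of the regimen in 66.7%. Same-numbered libraries correlated at -0.394 to 0.470 at the end of the regimen and at 0.00965 to 0.327 after refeeding. The correlation was over 0.1 in 4 of 10 pairs and highest with the own number only for replicate 5. The main fits and the statements of overlap leave the number out, and the labels do not say what it marks. Some genes did follow it after refeeding. Per1 was lowest in replicate 1 (63.8 and 82.6 CPM) and highest in replicate 3 (197 and 206) of AL_R and EOD_R. In each same-numbered pair Mt2 was lower and Plat higher in EOD_R than AL_R, although their ranges overlapped. With a replicate block the interaction gave 10 calls (38 together with the length gradient), EOD against AL 4 and EOD_R against AL_R 45. In that fit 7 of 10 clock repressors had a positive interaction at an unadjusted p under 0.05. The causes of these shifts were not tested. No named gene's interaction or difference reversed its sign past the threshold. Over the named genes, 873 of the values without 1 library kept direction and side of the threshold, 4 became called and 23 lost the call, as did 6 under other settings, where 35 became called and 542 kept their side. Among genes averaging 50 counts or more, the spread between libraries exceeded counting noise; rarer genes were not compared in this way.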
